A study of Mus musculus with 6 samples.

Results

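The genes described here encode cytoplasmic and junctional binding partners of YAP, and they number 7 of the 54532 genes counted in PCM-1-bound cardiomyocyte (CM) nuclei of mouse hearts. They are the angiomotin family genes *Amot*, *Amotl1* and *Amotl2*, the PDZ scaffold gene *Mpdz*, the tight junction scaffold gene *Tjp1*, the polarity scaffold gene *Pard3* and the phosphatase gene *Ptpn14*. They were chosen by name, as the rows of the count table whose Ensembl identifiers carry these symbols in GENCODE M21, and each symbol matched 1 row. Wildtype ICR mice received 1e+11 viral genomes of AAV9 under the skin at 6 d of age, and their hearts were taken at 9 d. The virus carried GFP (the control), YAP6SA or YAP5SA, each behind the cardiac troponin T (cTnT) promoter, which restricts expression to CMs, so every animal of every group carried endogenous *Yap1* and an AAV9 cassette. YAP5SA has the serines that LATS1/2 phosphorylate changed to alanine, and YAP6SA has in addition the serine needed for TEAD binding changed to alanine. Each group had 2 libraries of poly-A nuclear RNA, 1 from each of 2 batches named in the labels. The labels do not say whether each library is 1 heart, and p-values measure the spread between these libraries.

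YAP is a transcriptional coactivator that is held outside the nucleus when it is phosphorylated or bound to proteins of cell junctions. Angiomotins are coiled-coil proteins that sit on actin filaments and at junctions and bind the WW domains of YAP. MPDZ (also called MUPP1) and its relative PATJ are scaffolds built of many PDZ domains that tie together junction proteins, polarity proteins and angiomotins. TJP1 (ZO-1) links junction membrane proteins to actin, PARD3 assembles the atypical protein kinase C polarity complex, and PTPN14 is a tyrosine phosphatase that binds YAP and keeps it in the cytoplasm. *Amotl2* is also known in many cell types as a target of YAP with TEAD. In the heart such scaffolds are found at the intercalated disc, where CMs join end to end.

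The libraries held 14552847 to 19615627 reads on genes. Expression is given in CPM, counts relative to the depth of the kept genes after edgeR's TMM scaling, and a count of 3, the upper limit that a count of 0 allows, was 0.153 to 0.199 CPM (counting error only). The CM markers *Tnnt2*, *Myh6*, *Ttn*, *Ryr2*, *Actn2* and *Tnni3* summed to 26990 to 61942 CPM in the 6 libraries, which fits the labelled cell type. Markers of endothelial cells (480.8 to 737.4 CPM), fibroblasts (349.2 to 679.1 CPM), mural cells, macrophages and epicardial cells were also read in every library, and none of these marker genes was at 0 in any library. Of the 13323 genes kept by a filter on low values, 6 genes were higher and 0 lower in YAP6SA OE (overexpressing) CMs than in GFP, against 1708 higher and 1223 lower in YAP5SA OE CMs. These counts varied with the libraries used: without the first YAP5SA library 2538 genes were higher than in GFP and 2261 lower, without the second 1093 and 643, and without the second GFP library 591 and 197. *Yap1* itself had 139, 130, 122, 130, 138 and 102 CPM in the GFP, YAP6SA and YAP5SA libraries in turn, and was not higher in either YAP group (log2 fold change -0.09 and -0.17, FDR 0.952 and 0.495), so these counts do not show the overexpression.

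The sequences that bear on these genes come first. Knockdown of *Mpdz* in the study's YAP6SA hearts used a short hairpin RNA whose sense strand is printed here because it marks which part of the *Mpdz* transcript was targeted, although no library counted here received it.
sh_MPDZ: gccttcaggaatctttgtaaa
This run of 21 bases matched the sense strand of 1 mouse gene in GENCODE M21, *Mpdz*, in 4 of its 16 annotated transcripts. The match lies at chr4:81378031-81378051 on the minus strand of GRCm38, in coding sequence, in exon 9 or 10 depending on the transcript. The control hairpin matched no transcript on either strand.

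Promoters were searched because YAP acts on DNA through TEAD factors, which bind the letters CATTCC, looked for on both strands. In RefSeq's promoter windows of GRCm38.p6, taken as the 250 bases before a gene start, 6 of the 7 genes had an entry and *Mpdz* had none. The motif was found in the windows of *Ptpn14* and *Amotl2*, starting at positions -146 and -65 from the RefSeq start that sets the window, both on the strand of the gene. Only the *Ptpn14* window ends at the GENCODE M21 start given with the gene's values. For *Amotl2*, *Amot*, *Amotl1*, *Tjp1* and *Pard3* the RefSeq start lies inside the gene as GENCODE M21 annotates it. The *Amotl2* motif is therefore downstream of its GENCODE start. The 250 bases before the GENCODE starts of these genes were not searched in full. Across all 32851 windows CATTCC was found in 12.6%, and 14.4% of the 27025 genes with an entry had it. *Pard3* had an additional window. The AP-1 letters TGANTCA, found in 6.75% of all windows and 7.82% of those genes, were in none of the windows of the 6 genes. The window of *Ptpn14* is printed whole, since it lies outside annotated exons, and for *Amotl2* only the 30 bases around the motif are printed, since they lie inside an annotated exon. Capitals mark the motif, and both are on the plus strand.
Ptpn14, chr1:189728018-189728267: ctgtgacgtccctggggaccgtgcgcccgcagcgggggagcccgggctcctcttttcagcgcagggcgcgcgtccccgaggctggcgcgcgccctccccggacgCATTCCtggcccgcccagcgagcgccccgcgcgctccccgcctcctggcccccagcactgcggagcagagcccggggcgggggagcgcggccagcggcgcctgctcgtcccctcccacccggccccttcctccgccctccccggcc
Amotl2, chr9:102717727-102717756: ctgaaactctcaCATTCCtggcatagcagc
A match of these letters is a description of the sequence and was not tested for binding.

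All 7 genes passed the filter (median log2 CPM over 1 in at least 1 group), but *Amot* passed through YAP5SA alone, so a gene as low as *Amot* had to differ to be tested and its call is not counted as support for the others. In YAP6SA OE CMs, 0 of the 7 genes were called against GFP by edgeR's quasi-likelihood test (FDR under 0.05), where 0.0450% of all genes were called. By unadjusted p 1 of the 7, *Amot*, was under 0.05, as were 5.93% of all genes. In YAP5SA OE CMs, *Amotl2*, *Amot*, *Mpdz* and *Ptpn14* were higher than in GFP and 0 were lower, where 12.8% of all genes were called higher and 9.18% lower. Against YAP6SA OE CMs directly, *Amotl2*, *Mpdz* and *Amot* were higher in YAP5SA OE CMs, where 9.0% of all genes were called higher and 5.68% lower, and 0 of the 7 were lower. The median log2 fold change of the 7 genes was 0.12 in YAP6SA and 0.59 in YAP5SA OE CMs against GFP. Over all genes the median was within 0.01 of 0 in both. Without *Amot*, 3 of 6 genes were higher in YAP5SA OE CMs than in GFP (50%), and 2 of 6 than in YAP6SA OE CMs (33.3%). Of all genes that did not pass through YAP5SA alone, 11.5% and 7.955% were higher. The medians of the 6 genes against GFP were 0.10 in YAP6SA and 0.56 in YAP5SA OE CMs. Both YAP groups were set against the same GFP libraries, so these comparisons are not independent of each other.

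**Figure D1:**
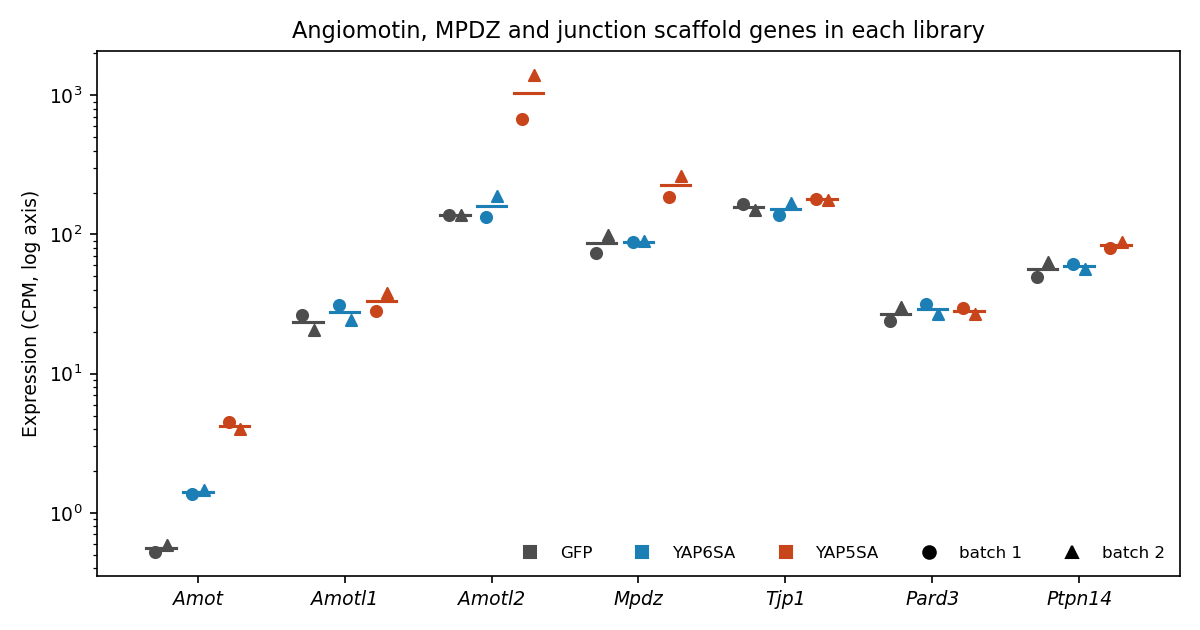
CPM (log axis) of each gene in the 6 libraries, with circles for batch 1, triangles for batch 2 and a bar at the mean of each group (n = 2 libraries). *Amotl2*, *Mpdz*, *Amot*, *Ptpn14* and, by little, *Tjp1* stand higher in both YAP5SA libraries than in all other libraries, whereas the *Pard3* libraries overlap between groups. Over all genes kept, 31.2% were higher without overlap in YAP5SA than in GFP, and 28.6% than in YAP6SA.

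*Amotl2* (ENSMUSG00000032531, chromosome 9, 102716672 to 102733418, plus strand of GRCm38) was the most abundant of the 7 genes per length and had the largest called change in CPM. In batches 1 and 2 it was read at 138 and 137 CPM with GFP, at 133 and 188 CPM with YAP6SA, and at 679 and 1405 CPM with YAP5SA. The GFP and YAP6SA libraries overlapped, and both YAP5SA libraries were far above all 4 others, although they differed from each other as well. *Amotl2* expression was 7.12-fold higher in YAP5SA OE CMs than in GFP (log2 fold change 2.83, standard error 0.25, 95% interval 2.28 to 3.39, FDR 1.9e-04). On the log2 scale the difference was 2.30 within batch 1 and 3.36 within batch 2. The gene was 6.28-fold higher than in YAP6SA OE CMs (log2 fold change 2.65, standard error 0.25, FDR 2.9e-04). Both calls held in each of 9 other fits and without any 1 library. For YAP6SA against GFP the log2 fold change was 0.18 with a 95% interval of -0.33 to 0.70 (FDR 0.941), so a rise as large as that in YAP5SA OE CMs lies outside the interval and a small difference in either direction lies inside it.

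*Amot* (ENSMUSG00000041688, chromosome X, 145446425 to 145505181, minus strand), which gives the family its name, was scarce. Its counts were 10 and 9 with GFP, 27 and 24 with YAP6SA and 68 and 71 with YAP5SA, or 0.526 and 0.588, 1.37 and 1.46, and 4.50 and 3.98 CPM. The 3 groups did not overlap, with GFP lowest and YAP5SA highest. Among all genes, both YAP6SA libraries were above both GFP libraries for 17.3%. The log2 fold change was 2.92 in YAP5SA OE CMs against GFP (standard error 0.52, 95% interval 1.76 to 4.07, FDR 0.00468). In YAP6SA OE CMs it was 1.34 with an interval of 0.14 to 2.54, an unadjusted p of 0.0322 and an FDR of 0.804 in the edgeR fit, and it passed in 0 of 7 other fits that tested it. Against YAP6SA OE CMs it was 1.58 higher in YAP5SA OE CMs (standard error 0.46), at an FDR of 0.0476. That last call is close to the threshold and was lost with DESeq2 (adjusted p = 0.0783), without the replicate block (FDR 0.0588) and in each of the 6 fits that leave out 1 library (FDR 0.0580 to 0.311).

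*Amotl1* (ENSMUSG00000013076, chromosome 9, 14541966 to 14645056, minus strand) had 26.2 and 20.4 CPM with GFP, 31.0 and 24.3 with YAP6SA and 28.2 and 38.1 with YAP5SA. The batch 2 library was the lower of its group in GFP and YAP6SA and the higher in YAP5SA. The log2 fold change in YAP5SA OE CMs against GFP was 0.52 (standard error 0.23, 95% interval -0.01 to 1.04, FDR 0.141), and within batches 1 and 2 it was 0.10 and 0.89. It reached 0.90 with an FDR of 0.00394 when the YAP5SA library of batch 1 was left out, and 0.11 at its lowest among the fits that leave out a library. In YAP6SA OE CMs it was 0.24 (FDR 0.929), close to equal in the batches at 0.24 and 0.25.

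Set on a common scale of CPM per kilobase of exon, the angiomotin family was mostly *Amotl2* in every library. The summed level of the family was 24.6 and 23.9 CPM per kilobase with GFP, 24.4 and 32.5 with YAP6SA, and 111 and 228 with YAP5SA. *Amotl2* made up 89.1% and 91.2% of that sum in GFP, 86.7% and 92.1% in YAP6SA, and 97.0% and 98.1% in YAP5SA. The share of *Amotl1* was 10.6% and 8.51% in GFP, 12.6% and 7.41% in YAP6SA, and 2.52% and 1.66% in YAP5SA, although its own level was not called lower in any comparison. *Amot* stayed under 1% in every library, at 0.208% to 0.670%.

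**Figure D2:**
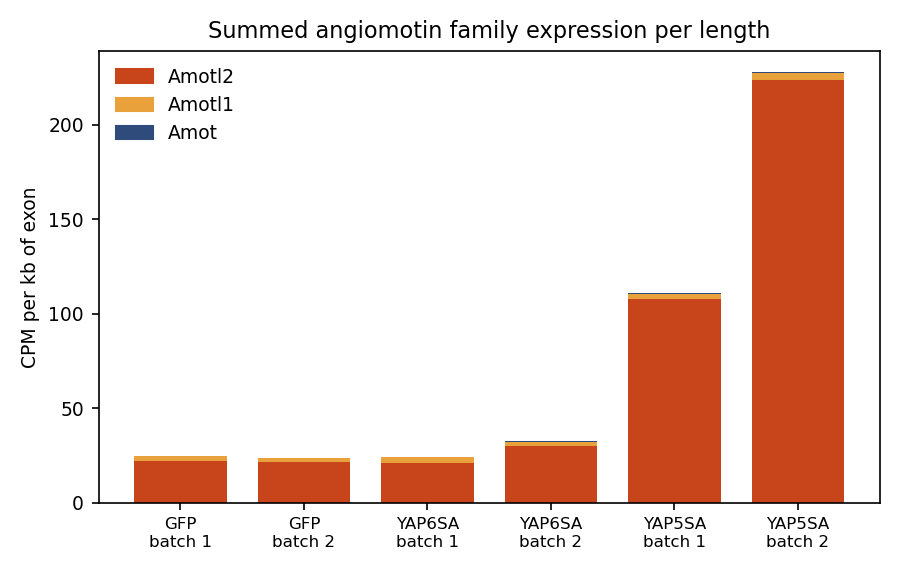
Summed expression of the angiomotin family in CPM per kilobase of exon (linear axis from 0), 1 bar per library, divided into *Amotl2*, *Amotl1* and *Amot*. The bars of the GFP and YAP6SA libraries lie between 23.9 and 32.5, those of YAP5SA at 111 and 228, and nearly all of each bar is *Amotl2*.

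*Mpdz* (ENSMUSG00000028402, chromosome 4, 81278500 to 81442815, minus strand), the gene targeted by the hairpin printed above, had 73.9 and 99.1 CPM with GFP, 87.7 and 89.3 CPM with YAP6SA, and 187 and 262.5 CPM with YAP5SA. The YAP6SA libraries lay between the GFP libraries, and both YAP5SA libraries were above all others. *Mpdz* was 2.59-fold higher in YAP5SA OE CMs than in GFP (log2 fold change 1.37, standard error 0.16, 95% interval 1.01 to 1.74, FDR 7.5e-04), by 1.34 within batch 1 and 1.40 within batch 2 on the log2 scale. Its level was 2.50-fold higher than in YAP6SA OE CMs (log2 fold change 1.32, FDR 0.00125). Both calls held in each of 9 other fits and without any 1 library. For YAP6SA against GFP its log2 fold change was 0.05, from 0.25 in the first batch and -0.15 in the second (95% interval -0.31 to 0.42, FDR 0.971). The upper end of that interval is below the lower end for YAP5SA. The counts are of RNA, and the level or binding of the MPDZ protein was not measured in them.

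*Tjp1* and *Pard3*, the tight junction and polarity scaffolds, were not called in any of the 3 comparisons. *Tjp1* (ENSMUSG00000030516, chromosome 7, 65296165 to 65527781, minus strand) had 165 and 149 CPM with GFP, 139 and 167 with YAP6SA, and 181 and 177 with YAP5SA. Both YAP5SA libraries were above the other 4, by little: its log2 fold change was 0.19 against GFP (95% interval -0.17 to 0.54, FDR 0.430) and 0.23 against YAP6SA (FDR 0.366). *Pard3* (ENSMUSG00000025812, chromosome 8, 127063893 to 127612286, plus strand) had 23.9 and 30.1 CPM in GFP, 31.7 and 26.9 in YAP6SA, and 29.5 and 27.0 in YAP5SA, and all groups overlapped. Its log2 fold change was 0.07 in YAP5SA against GFP (95% interval -0.39 to 0.53, FDR 0.845) and 0.12 in YAP6SA (FDR 0.949), with opposite signs in the batches in both.

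*Ptpn14* (ENSMUSG00000026604, chromosome 1, 189728268 to 189876695, plus strand) had 49.2 and 63.0 CPM with GFP, 61.3 and 56.6 CPM with YAP6SA, and 80.5 and 88.2 CPM with YAP5SA. The GFP and YAP6SA libraries overlapped and the YAP5SA libraries were above both. *Ptpn14* was 1.51-fold higher in YAP5SA OE CMs than in GFP (log2 fold change 0.59, standard error 0.16, 95% interval 0.23 to 0.96, FDR 0.0277). It remained called in 9 other fits (FDR 0.0119 to 0.0499), and the call was lost without the first GFP library (log2 fold change 0.44, FDR 0.266) or the second (0.78, FDR 0.0807). Against YAP6SA OE CMs its log2 fold change was 0.51 with an FDR of 0.0621. The antisense gene *Gm26574* overlaps 177 of its exonic bases (1.32%), and libraries that do not keep the strand cannot tell reads of the 2 genes apart there.

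**Figure D3:**
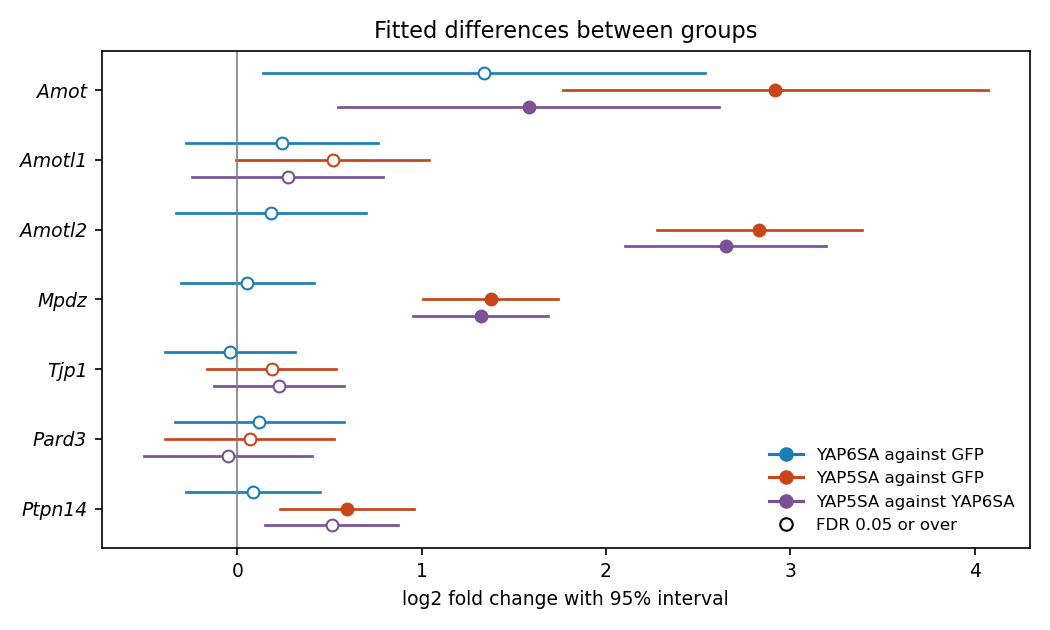
Fitted log2 fold change of each gene with its 95% interval for YAP6SA against GFP, YAP5SA against GFP and YAP5SA against YAP6SA. Filled points have an FDR under 0.05. All YAP6SA points are open, and the filled points are *Amot*, *Amotl2* and *Mpdz* in both YAP5SA comparisons and *Ptpn14* in that against GFP.

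The libraries of YAP5SA and GFP did not overlap for 6 of the 7 genes, all but *Pard3*, with YAP5SA higher. Over all genes kept, 31.2% were higher without overlap in this comparison and 29.7% lower. Between YAP5SA and YAP6SA 5 of the 7 genes were higher without overlap, against 28.6% of all genes, and between YAP6SA and GFP 1 of the 7, against 17.3%. None of the 7 was lower without overlap in these comparisons, against 28.9% and 17.0% of all genes. *Amot* is among the genes higher without overlap in each comparison, but it passed the filter through YAP5SA alone. A gene as low as *Amot* had to differ to be tested, so its part in these counts is no support for the others. In CPM per kilobase of exon, the order in GFP was *Amotl2* at 21.8 ± 0.10 (SD, n = 2), *Tjp1* at 20.1 ± 1.49, *Mpdz* at 6.95 ± 1.44, *Ptpn14* at 4.18 ± 0.73, *Amotl1* at 2.32 ± 0.41, *Pard3* at 1.86 ± 0.30 and *Amot* at 0.0663 ± 0.0052. Of these neighbours, *Amotl1* and *Pard3* overlapped and the rest did not. The same order was found in both YAP groups, where *Amotl2* overlapped *Tjp1* in YAP6SA (25.6 ± 6.18 against 19.6 ± 2.54) and was far above it in YAP5SA (166 ± 81.7 against 22.9 ± 0.35). *Mpdz* stood between *Tjp1* and *Ptpn14* in every group, at 7.12 ± 0.09 in YAP6SA and 18.1 ± 4.28 in YAP5SA.

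Across the 6 libraries, the log2 CPM of *Mpdz* moved most closely with that of *Amotl2* (Pearson r = 0.977) and *Ptpn14* (r = 0.969) among the 7 genes, and least with *Pard3* (r = 0.13). These libraries share groups and batches, so r is a description of 6 points. Among the other 13316 genes kept, the patterns most like *Amotl2* were those of *Kif20a*, *Prx* and *Dlc1* (each r = 0.999), and 669 genes had r over 0.95. Among those most like *Mpdz* were *Nup205* and *Depdc1b* (both r = 0.997), out of 535 genes over 0.95. For *Amot* they were *Kif14* (0.993), *Tax1bp3* (0.991) and *Nabp1* (0.990), with 111 genes over 0.95, and for *Ptpn14* *4930579G24Rik* (0.996), *Rbm3* (0.995) and *Ces3b* (0.993), with 145. Fewer genes resembled the rest. *Amotl1* had 95 such genes, led by *Gprc5a* (0.996), *Scaf11* (0.990) and *AF357399* (0.989). *Tjp1* had 14, led by *Chic1* (0.996), *Snw1* (0.988) and *Uxs1* (0.983), and *Pard3* had 5, led by *Rps6kl1* (0.993), *Adprhl1* (0.974) and *9330020H09Rik* (0.973).

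The partners of these proteins were read in the same fit, in 5 lists of 57 genes, of which 51 passed the filter. In YAP6SA OE CMs 0 of the 51 were called against GFP by edgeR's quasi-likelihood test, and 2 (3.92%) had an unadjusted p under 0.05, beside 5.93% of all genes. With YAP5SA, 15 were higher than in GFP (29.4%) and 0 were lower, and 13 were higher than in YAP6SA OE CMs (25.5%) and 0 lower, beside 22.0% and 14.7% of all genes called in either direction. *Wwc1*, *Crb2*, *Prkcz* and *Cgn* passed the filter through YAP5SA alone, so that, like *Amot*, they had to differ to be tested. Without such genes 12 of 47 were higher than in GFP (25.5%) and 11 than in YAP6SA OE CMs (23.4%), beside 21.0% and 13.9% of all genes called in either direction. Without the second YAP6SA library the 13 became 5, while the genes higher among all genes went from 1199 to 341.

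Of the polarity complex genes, 5 of 11 were higher in YAP5SA OE CMs than in GFP, with a median log2 fold change of 0.27. Without *Crb2* and *Prkcz*, which passed the filter through YAP5SA alone, 3 of 9 were higher (33.3%), with a median of -0.09. Over all genes 12.8% were higher, or 11.5% without those that passed in that way. *Crb2*, a transmembrane protein of the Crumbs polarity complex, had 2.10 and 0.588 CPM in GFP, 2.34 and 1.58 in YAP6SA, and 18.2 and 36.4 in YAP5SA (log2 fold change 4.33 against GFP, FDR 9.8e-04). *Pard3b*, the paralog of *Pard3*, had 3.0 and 4.44 CPM in GFP, 2.85 and 4.85 in YAP6SA, and 11.1 and 20.1 in YAP5SA (log2 fold change 2.04, FDR 0.00204), whereas *Pard3* itself did not pass the test. Of the complex that PARD3 assembles, the adaptor gene *Pard6b* was higher by 1.90 (FDR 0.0112) and the atypical protein kinase C genes *Prkcz* and *Prkci* by 1.70 (FDR 0.0264) and 1.08 (FDR 0.00584). The other adaptor genes, *Pard6a* (-0.20, FDR 0.594) and *Pard6g* (-0.28, FDR 0.709), were not called. *Prkcz* lost its call without either GFP library or without the second YAP5SA library, *Pard6b* without the second GFP or the second YAP5SA library, and *Prkci* without the second GFP library. *Patj*, the paralog of *Mpdz*, had a log2 fold change of -0.09 in YAP5SA OE CMs (FDR 0.809) and was not called in any comparison.

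Of the tight junction genes, 6 of 10 were higher in YAP5SA OE CMs than in GFP (60%), beside 12.8% of all genes. Their median log2 fold change was 0.88. Without *Cgn*, which passed the filter through YAP5SA alone, 6 of 9 were higher (66.7%), with a median of 0.84. Over all genes without those that passed in that way 11.5% were higher. *Jam2*, a junctional adhesion molecule, had 43.9 and 50.7 CPM in GFP, 47.0 and 58.4 in YAP6SA and 189 and 383 in YAP5SA (log2 fold change 2.53, FDR 1.7e-04). The MAGI scaffolds *Magi1* (1.06, FDR 0.00266) and *Magi3* (0.91, FDR 0.00752) were higher as well, whereas *Tjp1* had differences of 0.13 and 0.25 in the batches and was not called. Also called were *Cgnl1* (0.84, FDR 0.0103) and *F11r* (0.79, FDR 0.00951), which were named after their values were seen. The same 6 genes were higher in YAP5SA than in YAP6SA OE CMs (60%), beside 9.0% of all genes, and *Jam2* led at 2.38. *F11r*, *Magi1*, *Magi3* and *Cgnl1* lost that call in some fits that leave out a library. Their log2 fold changes there ranged from 0.63 to 0.84, 0.75 to 1.22, 0.60 to 1.09 and 0.51 to 1.10. *Magi3* and *Cgnl1* lost their calls against GFP without the first GFP library, and *F11r* without the second. Without the replicate block *Magi3* lost its call against GFP (FDR 0.0504), and *F11r* and *Magi3* lost theirs against YAP6SA (FDR 0.0759 and 0.0771).

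Of 13 other cytoplasmic regulators of YAP, 3 were higher in YAP5SA OE CMs than in GFP (23.1%, near the 22.0% of all genes called), beside a median of 0.01, or 2 of 12 (16.7%) without *Wwc1*. *Wwc1* (KIBRA), which activates LATS kinases, had 19 and 11 counts in GFP, 23 and 1 in YAP6SA, and 274 and 1053 in YAP5SA (log2 fold change 5.34, standard error 0.75, FDR 0.00151), and it passed the filter through YAP5SA alone. *Lats2*, a kinase that phosphorylates YAP, had 51.2 and 40.5 CPM in GFP, 46.2 and 51.8 in YAP6SA, and 96.9 and 107 in YAP5SA (log2 fold change 1.15, FDR 0.00202). *Scrib*, a polarity scaffold, was higher by 0.60 (FDR 0.0209), a call that was lost without either GFP library and without the replicate block (FDR 0.0527). The same 3 genes were higher than in YAP6SA OE CMs (23.1%), beside 14.7% of all genes called in either direction and 9.0% called higher. Without *Wwc1* this was 2 of 12 (16.7%). Of all genes that did not pass through YAP5SA alone, 13.9% were called in either direction and 7.955% higher. *Scrib* kept its call against YAP6SA in 1 of the 6 fits that leave out a library and lost it without the replicate block. Of 7 enzymes that control angiomotin turnover, among them the tankyrases and the NEDD4 family ligases, 0 were called in any comparison by edgeR's quasi-likelihood test. Their medians were 0.14, 0.06 and 0.01 in YAP6SA against GFP, YAP5SA against GFP and YAP5SA against YAP6SA. Over all genes 0.0450%, 22.0% and 14.7% were called in that order. By unadjusted p 0, 1 and 0 of the 7 were under 0.05, beside 5.93%, 36.4% and 30.8% of all genes. The 1 gene was *Nedd4l* (log2 fold change 0.56 in YAP5SA against GFP, FDR 0.134), which was called without a filter on low counts (FDR 0.0135) and without the second GFP library (log2 fold change 1.08).

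**Figure D4:**
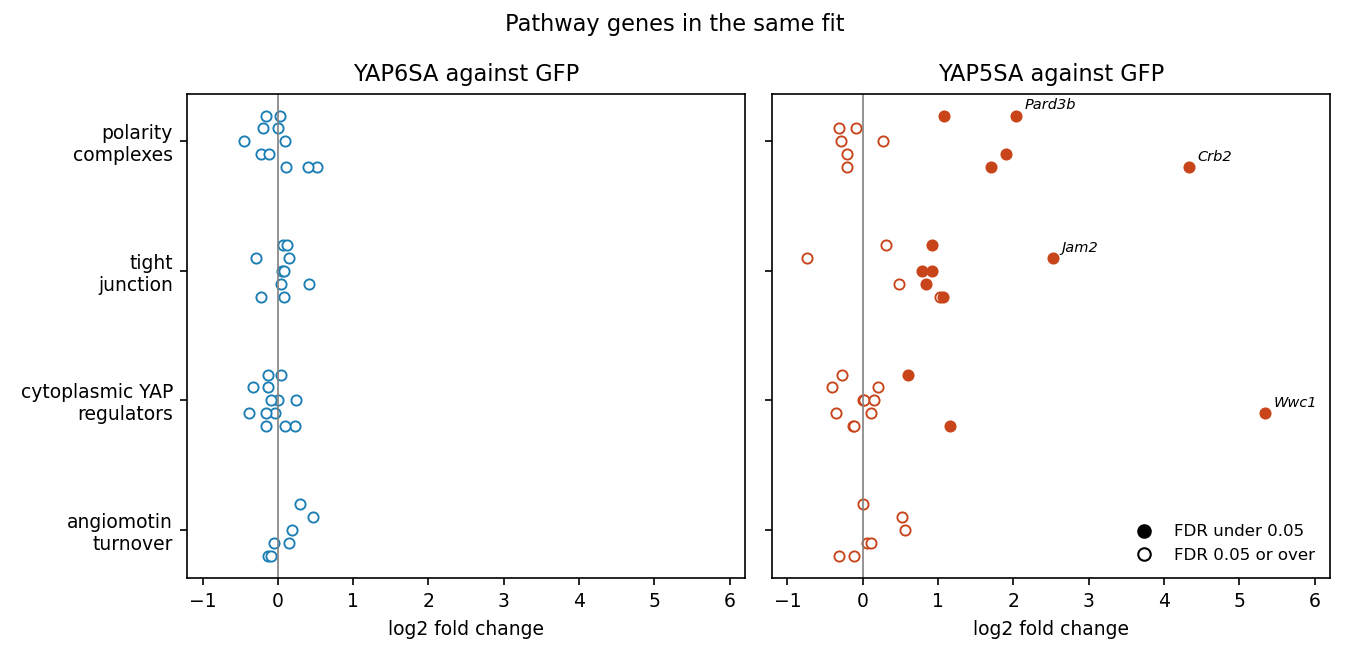
Log2 fold change of the 41 genes of 4 lists that passed the filter, by list, for YAP6SA against GFP and YAP5SA against GFP, with filled points for an FDR under 0.05. No point is filled for YAP6SA, and 14 are filled for YAP5SA, of which *Wwc1*, *Crb2* and *Prkcz* passed the filter through YAP5SA alone.

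Of the 36 cell markers tested, 5 were called in YAP5SA OE CMs against GFP (13.9%), beside 22.0% of all genes. In bulk RNA, fewer cells of a type and less RNA per cell cannot be told apart. The CM markers summed to 45672 and 61942 CPM in GFP, 42954 and 55806 in YAP6SA and 37727 and 26990 in YAP5SA, with 1 of 6 called lower in YAP5SA OE CMs than in GFP, *Ryr2* (log2 fold change -0.81, FDR 0.0455). All 6 had negative log2 fold changes there, with a median of -0.76. *Myh6* had the largest, -1.04, and was not called (FDR 0.0625). By unadjusted p of the quasi-likelihood test 4 of the 6 were under 0.05, beside 36.4% of all genes. The epicardial markers summed to 41.0 and 31.8 CPM in GFP, 57.7 and 31.8 in YAP6SA, and 126 and 189 in YAP5SA, with 2 of 5 called higher, *Wt1* (log2 fold change 3.17, FDR 2.3e-04) and *Krt19* (2.21, FDR 0.0292). *Upk3b*, *Msln* and *Upk1b* were not called. Of the endothelial (8 genes) and fibroblast (6 genes) markers, whose cells express several of these junction genes, 0 were called. Within both batches their sums were higher than with GFP in both YAP groups: in batches 1 and 2 the endothelial sum was 616.3 and 480.8 CPM with GFP, 737.4 and 503.1 with YAP6SA, and 637.4 and 496.2 with YAP5SA, and the fibroblast sum was 518.2 and 349.2 CPM, 679.1 and 387.7, and 595.6 and 395.6. Abundant genes weigh most in such sums, and single genes differed in direction. In YAP5SA OE CMs against GFP the log2 fold change was -0.50 for *Pdgfra* (FDR 0.111), -0.22 for *Tcf21* (FDR 0.516) and -0.04 for *Egfl7* (FDR 0.895). The other genes of both lists had positive values, and the medians were 0.20 (fibroblast) and 0.15 (endothelial). Among mural markers 1 of 6 was called higher, *Myh11* (1.00, FDR 0.0274), and among macrophage markers 1 of 5, *C1qa* (0.96, FDR 0.0228). The part of these cell types in the YAP5SA values was not tested.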

How the data were processed

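Poly-A RNA of PCM-1-bound nuclei was sequenced in non-directional libraries, 2 for each of GFP, YAP6SA and YAP5SA. The authors mapped reads with STAR to mm10 with an Ensembl GRCm38 annotation (the STAR version is not given in the sources used here) and deposited raw counts per gene without normalization. Reads that were unmapped (3.03% to 3.63%), multimapping (2.90% to 4.19%), outside genes (9.43% to 9.84%) or ambiguous (5.79% to 6.31%) stand in separate rows and were left out of library sizes. Reads shared by near-identical genes are among those left out. All 6 columns matched 1 sample each. Names and positions came from GENCODE M21, which named 54495 of 54532 genes. Replicates were no copies of each other (chi-square per degree of freedom 25.3 to 39.6).

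Genes with a median log2 CPM over 1 in at least 1 group were kept, as the study's methods state (13323 genes). Counts were fitted with edgeR 4.0.16 in R 4.3.3 (TMM scaling over the kept genes, quasi-likelihood test) with group and batch terms over all 6 libraries, and FDR is the p adjusted by Benjamini-Hochberg over the genes kept (threshold 0.05). The replicate number is the batch in the labels, so it pairs the libraries (correlations of deviations 0.368, 0.0985 and 0.175). The code was tested on simulated data. Alternatives were DESeq2's size factors, upper quartile scaling, no filter, at least 10 counts in every library, a likelihood ratio test, DESeq2 1.42.0, limma-voom (limma 3.58.1), no replicate block, the 4 libraries compared, and each library left out. A fit of 5 libraries has 1 residual degree of freedom, pools the spread over genes and assumes that a lone library varies like the other groups.

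The 7 genes, the 5 pathway lists (polarity complexes, tight junction, other cytoplasmic YAP regulators, angiomotin turnover and 1 more) and the 6 marker lists were chosen with earlier results of these data known. Named were the 7 genes, *Yap1*, per list and comparison up to 4 called genes with the largest change that moved the same way in both batches (mean log2 CPM at least 1), and for each of the 7 the 3 genes with the highest Pearson r. Markers called, *Myh6*, *Pdgfra*, *Tcf21*, *Egfl7*, *Patj*, *Pard6a*, *Pard6g*, *Nedd4l* and *Cgn* were named after their values were seen. Sequences came from the study's hairpin table and RefSeq's promoters (GRCm38.p6). The members of 1 list and some genes that this rule names are not reported here.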

Additional observations from a re-analysis of the deposited data

Results flagged for a closer look

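For 3 of the 7 genes the effects of the variants against GFP differed when YAP5SA and YAP6SA OE CMs were compared directly (edgeR quasi-likelihood test). Over all genes 14.7% were called in that comparison. *Amot* passed the filter through YAP5SA alone, and without such genes 2 of 6 were called (33.3%), beside 13.9% of all genes. The log2 difference was 2.65 for *Amotl2* (FDR 2.9e-04), 1.32 for *Mpdz* (FDR 0.00125) and 1.58 for *Amot* (FDR 0.0476), each higher in YAP5SA and each in the same direction in both batches. For *Amotl2* and *Mpdz* the log2 fold changes of YAP5SA and YAP6SA against GFP were 2.83 and 0.18, and 1.37 and 0.05. For *Amot* they were 2.92 and 1.34, from 9 to 71 counts a library, and the direct difference was past the threshold in 6 of 8 other fits and in 0 of 6 fits that leave out a library. With 2 libraries per group, single libraries could not be tested as outliers.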

How the results depend on the processing

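Each group had 2 libraries, so 1 library weighs heavily, and depth limits *Amot* most, which fell under the filter of 10 counts in every library. Without the replicate block, 0, 4 and 2 of the 7 genes were higher in YAP6SA against GFP, YAP5SA against GFP and YAP5SA against YAP6SA (0, 4 and 3 with it), and over all genes 0, 1331 and 851 were higher and 0, 759 and 301 lower. The *Amot* call between the variants was lost. Of the list genes 13 and 9 were higher in the YAP5SA comparisons, against 15 and 13 with the block. Over all genes, YAP6SA against GFP gave 6 higher and 0 lower genes with the block, 109 and 36 without a filter, 54 and 28 by the likelihood ratio test, 40 and 14 by DESeq2 and 168 and 68 in the 4-library fit, and 0 of the 7 genes were called in these fits (in the 4-library fit 0 of 6, since *Amot* was not tested there).

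With 1 library left out, the list genes called lower in YAP5SA against GFP numbered 0 to 3 (3 without the first YAP5SA library), and those higher than in YAP6SA 5 to 15, with 5 without the second YAP6SA library. No called gene of the 7 changed direction. Uncalled log2 fold changes changed sign in some of these fits, with ranges for YAP6SA against GFP of -0.17 to 0.26 (*Mpdz*), -0.18 to 0.61 (*Amotl2*), -0.23 to 0.13 (*Tjp1*), -0.10 to 0.26 (*Ptpn14*) and -0.14 to 0.38 (*Pard3*), for YAP5SA against GFP of -0.17 to 0.34 (*Pard3*), and for YAP5SA against YAP6SA of -0.13 to 0.65 (*Amotl1*) and -0.21 to 0.13 (*Pard3*). *Ptpn14* was called between the variants by the likelihood ratio test (FDR 0.0432) and without the first YAP5SA library (FDR 0.0464), as was *Amotl1* without that library (FDR 0.0289). The cause was not tested.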
